A study of Homo sapiens with 6 samples.

Results

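The ligands of the tumour necrosis factor (TNF) superfamily and their receptors were followed in VK2/E6E7 cells, a human line of vaginal epithelium that carries papillomavirus E6 and E7 genes as its immortalising step. The family was chosen with earlier results of these data known. Its members were taken by symbol from the protein-coding rows of the deposited gene table, without use of their values. This gave 45 of 46427 genes, of which 17 encode ligands and 28 encode receptors. The 3 control cultures received PBS, and the 3 treated cultures received 1e8 CFU/mL of the lactic acid bacterium Lactobacillus salivarius HHuMin-U (HMU); RNA was taken after 6 h in both groups. All 6 libraries come from this 1 cell line, with no change of genotype given beyond E6 and E7. The cells were kept in serum-free keratinocyte medium with epidermal growth factor, pituitary extract and antibiotics. The comparison asks how the bacterium changed transcript levels in these cells.

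TNF superfamily ligands are mostly trimeric membrane proteins, and some are shed as soluble cytokines. Their receptors fall into groups: those with a cytoplasmic death domain can start cell death or NF-kB signalling, those that bind TRAF adaptors signal to NF-kB and MAP kinases, and decoys bind ligand without a full signal. TNF itself is a central inflammatory cytokine, and lymphotoxins shape lymphoid tissue. Many other members are known as costimulators between lymphocytes and antigen-presenting cells, and several also act in skin and mucosal epithelium.

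Libraries held 64292566 to 65957584 counts each. HMU replicate 2 stood apart from the other treated libraries. In a chi-square comparison of gene counts, the statistic per degree of freedom was 70.7 and 121 against HMU replicates 1 and 3, 14.8 between those, and 5.17 to 6.31 between PBS libraries. All 9 epithelial markers, among them the keratin genes KRT5 and KRT14, were detected in every library, and their summed level was 84340 to 86740 TPM in PBS and 68900 to 76700 TPM in HMU libraries. Of these, KRT13, KRT17, KRT6A and CDH1 were called higher and DSG3 lower. Among the leukocyte markers, FCGR3A had 0 counts throughout, and PTPRC, the pan-leukocyte gene, stayed at or below 0.154 CPM. The summed level of the leukocyte list was 2.37 to 2.89 TPM in PBS and 6.65 to 9.95 TPM in HMU libraries. CD14, a monocyte gene also active in epithelium, held a mean of 2.41 and 8.38 TPM of it, and the myeloid gene ITGAM rose as well, from 17, 7 and 14 counts to 26, 23 and 33 (edgeR adjusted p = 0.0127). Of 8 fibroblast or endothelial markers, 1 to 3 had 0 counts in a library, and their sum was 49.0 to 52.6 TPM in PBS and 31.3 to 35.3 TPM in HMU libraries. That sum followed COL1A1, which had a mean of 47.9 TPM in PBS and 30.2 TPM after HMU, and PDGFRB also fell. The endothelial markers of the list were called higher at low levels: CDH5 had 0 counts in each PBS library and 65, 42 and 67 in HMU libraries, PECAM1 had 6, 4 and 0 against 55, 44 and 74 counts, and VWF had 46, 29 and 47 against 65, 59 and 60 counts (edgeR adjusted p = 0.000173, 0.000495 and 0.0138). CDH5, PECAM1 and ITGAM reached the filter minimum of 10 counts in every library of HMU only, and PDGFRB in every library of PBS only. These genes could not have been tested without a level in that group. The part of these marker changes in the results for the TNF family was not tested. In bulk RNA, fewer cells of a type and less RNA per cell cannot be told apart.

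More members rose than fell after HMU, and the rises reached ligands, receptors of both signalling groups and the 2 tested decoys. The call of the decoy gene TNFRSF10D was next to the threshold. Of the 45 members, 33 passed the filter on low counts; 19 of these were higher and 5 lower by edgeR's quasi-likelihood test with an adjusted p under 0.05. Over all 17990 tested genes, 24.8% were higher and 24.9% were lower, 49.7% in either direction. All HMU libraries lay above all PBS libraries for 19 members and below them for 6, and 62.3% of all tested genes had groups that did not overlap. A change of at least 2-fold was fitted for 11 higher members and 1 lower member, where 8.07% and 7.46% of all tested genes passed the same rule. The median log2 fold change was 0.43 over the tested members and -0.00245 over all tested genes. LTA and TNFRSF9 passed the filter through their HMU libraries, and TNFRSF13C through its PBS libraries, so these 3 could not have been tested without a level in that group. Scaled by library sizes only, the median of all genes moved to -0.28, and 16 members were higher and 6 lower. Over all tested genes, that scaling gave 2413 higher and 7855 lower. Changes below are on the TMM scale, and levels are TMM-normalised CPM (counts scaled by library) unless named as TPM.

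**Figure D1:**
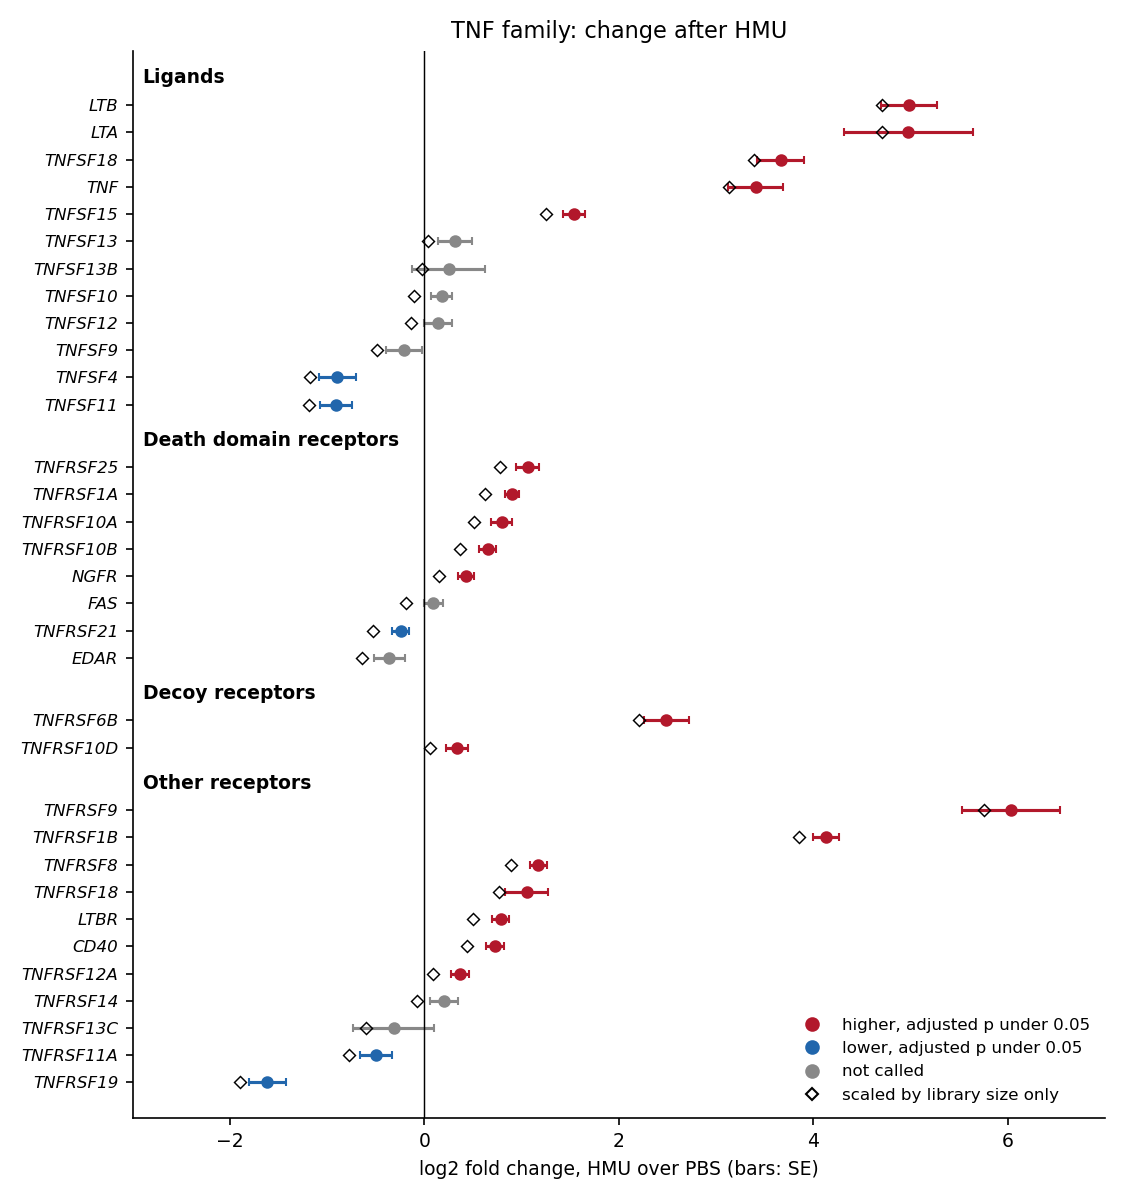
Log2 fold change of HMU over PBS for the 33 tested members, by role. Points with SE bars are the TMM-scaled edgeR fit, coloured by call, and diamonds give the same fit scaled by library sizes only. TNFRSF9, LTB and LTA lie farthest to the right at 6.03, 4.99 and 4.98, and TNFRSF19 farthest to the left at -1.62.

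Of the 12 members that were not tested, 6 had 0 counts in every library: CD40LG and TNFSF8, ligands of activated lymphocytes, the decoy genes TNFRSF10C and TNFRSF11B, and TNFRSF13B and TNFRSF17, receptors of B-lineage cells. A count of 0 allows up to 3 counts, which equal 0.0416 to 0.0522 CPM in these libraries, counting error only. CD70, the ligand of CD27, had 0, 0 and 5 counts in PBS and 8, 17 and 11 in HMU libraries. TNFRSF4, the OX40 receptor gene, had 0 counts in each PBS library and 5, 2 and 8 in HMU libraries. CD27 had 7, 12 and 0 counts in PBS and 0 in each HMU library. TNFSF14, which encodes LIGHT, had 6 to 9 counts in PBS and 8 to 12 in HMU libraries, FASLG had 2 counts in HMU replicate 2 alone, and EDA2R had 2 in PBS replicate 1 alone.

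The lymphotoxin genes and TNF, which lie next to each other in the class III region of the MHC on chromosome 6, all rose. LTB encodes lymphotoxin beta, which anchors lymphotoxin alpha at the cell surface. LTB was at 0.466, 0.279 and 0.194 CPM in PBS replicates 1 to 3 and at 9.60, 12.2 and 8.16 CPM in HMU replicates 1 to 3. All HMU libraries were far above all PBS libraries, with a log2 fold change of 4.99 ± 0.29 SE (edgeR adjusted p = 1.01e-05, n = 3 per group). TNF was at 0.283, 0.321 and 0.361 CPM in PBS and at 4.45, 2.30 and 3.55 CPM in HMU libraries. The groups did not overlap, HMU replicate 2 was the lowest treated library, and the log2 fold change was 3.41 ± 0.29 SE (edgeR adjusted p = 6.56e-05). LTA, which encodes lymphotoxin alpha, had 0, 0 and 4 counts in PBS and 38, 30 and 47 counts in HMU libraries, or 0.641, 0.522 and 0.775 CPM after HMU. Its fitted log2 fold change of 4.98 ± 0.67 SE (edgeR adjusted p = 0.000682) rested on the 4 counts of PBS replicate 3; without that library PBS had 0 counts and the fitted value was 8.37. The promoter stretches of LTB and TNF, and that of TNFRSF9, the receptor gene with the largest fitted rise, are shown because these genes had few counts under PBS and were among the largest rises in the family; the RefSeq sequences are of build GRCh38.p14, from 250 bases before to 50 after the gene start, at chr6:31582376-31582675 on the minus strand, chr6:31575315-31575614 on the plus strand and chr1:7940790-7941089 on the minus strand.
LTB promoter: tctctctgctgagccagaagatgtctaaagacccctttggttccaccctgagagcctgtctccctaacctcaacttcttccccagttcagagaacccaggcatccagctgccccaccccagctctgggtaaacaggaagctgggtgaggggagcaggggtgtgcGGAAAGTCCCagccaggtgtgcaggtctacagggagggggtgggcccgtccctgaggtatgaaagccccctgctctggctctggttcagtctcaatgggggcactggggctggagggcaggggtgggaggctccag
TNF promoter: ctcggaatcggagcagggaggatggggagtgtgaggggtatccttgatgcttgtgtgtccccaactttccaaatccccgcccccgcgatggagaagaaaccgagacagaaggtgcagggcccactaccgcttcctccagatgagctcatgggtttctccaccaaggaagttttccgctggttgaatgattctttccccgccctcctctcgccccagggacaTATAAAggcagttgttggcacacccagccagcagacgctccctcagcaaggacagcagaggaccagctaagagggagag
TNFRSF9 promoter: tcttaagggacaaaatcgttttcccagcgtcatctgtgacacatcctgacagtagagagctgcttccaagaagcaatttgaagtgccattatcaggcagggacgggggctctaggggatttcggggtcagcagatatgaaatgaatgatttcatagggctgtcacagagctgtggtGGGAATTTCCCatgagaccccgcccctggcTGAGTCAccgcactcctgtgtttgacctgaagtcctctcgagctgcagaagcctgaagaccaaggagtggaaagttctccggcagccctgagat

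In the sequences above, capitals mark matches to the kB consensus of NF-kB sites and to TGANTCA, the AP-1 site, both searched on either strand, and to TATAAA on the strand shown. With the start base counted as 0, LTB held a kB match from -86 to -77. In TNFRSF9, kB matches of both strands overlapped from -74 to -64, and a TGANTCA match lay from -44 to -38. TNF held TATAAA from -29 to -24 and no exact kB match within this stretch. Looser matches were not searched for, so this does not show that the stretch lacks an NF-kB site. Promoter stretches were at hand for 29 of the 45 members, and 8 of these genes held a kB match in at least 1 stretch, against 7.09% of all genes with a stretch. The 8 were LTA, LTB, TNFRSF9 and TNFRSF25, which rose, TNFSF13, TNFRSF14 and FAS, which were not called, and TNFSF14, which was not tested. Of the members called higher, 13 had a stretch, and 4 of these held a kB match. The stretches shown were picked from the large rises: LTA, TNFRSF1B and TNFSF18 rose more than TNF and are not shown. TGANTCA was held by 7 members and 9.37% of all genes, and TATAAA by 5 members and 8.99% of all genes. A match describes letters only, since binding was not measured.

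**Figure D2:**
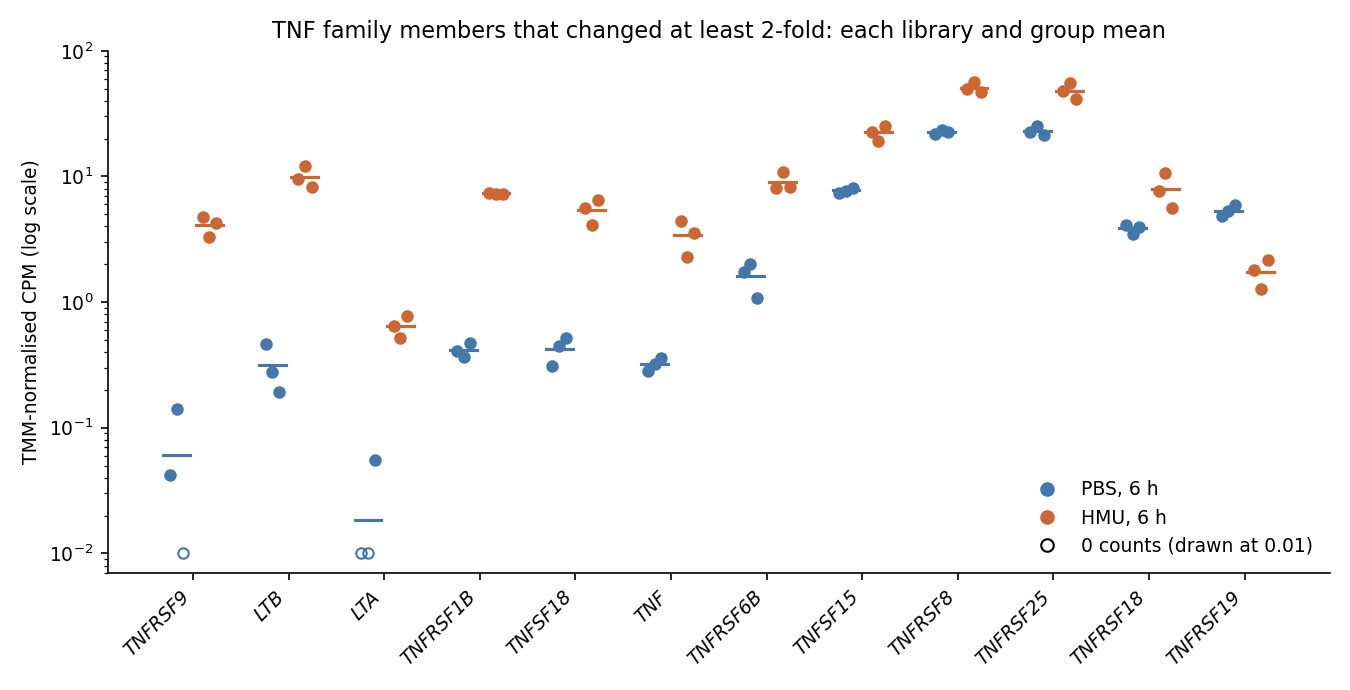
TMM-normalised CPM on a log scale for the 12 members with a called change of at least 2-fold. Each point is a library, bars are group means of 3 libraries, and open circles are libraries with 0 counts drawn at 0.01. HMU points lie above all PBS points for 11 genes and below them for TNFRSF19.

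Of the other ligands, 2 rose, 2 fell and 5 were not called, where 24.8% of all tested genes were higher and 24.9% lower. TNFSF18, which encodes the GITR ligand, rose from 0.311, 0.447 and 0.513 CPM in PBS to 5.57, 4.12 and 6.50 CPM in HMU libraries. Its HMU libraries were all above its PBS libraries, with a log2 fold change of 3.66 ± 0.24 SE (edgeR adjusted p = 2.08e-05). TNFSF15, the TL1A gene, known in mucosal inflammation, was at 7.42, 7.66 and 8.13 CPM in PBS and at 22.5, 19.2 and 25.4 CPM in HMU libraries. These groups did not overlap either, and the log2 fold change was 1.53 ± 0.11 SE (edgeR adjusted p = 3.58e-05). TNFSF4, the OX40 ligand gene, was at 1.84, 1.41 and 1.54 CPM in PBS and at 0.692, 0.888 and 0.990 CPM in HMU libraries. It fell by 0.90 on the log2 scale (SE 0.19, edgeR adjusted p = 0.00647), with all HMU libraries below all PBS libraries. The TNFSF4 locus overlaps the long non-coding RNA genes LOC100506023 (38 to 54 counts in PBS and 6 to 16 in HMU libraries) and PRDX6-AS1 (20 to 25 and 0 to 12 counts). Since no source used here says whether counting used strand, reads of overlapping genes cannot be told apart with certainty. TNFSF11 encodes RANKL, the osteoclast differentiation factor, and was at 1.03, 1.19 and 1.12 CPM in PBS and 0.590, 0.539 and 0.643 CPM in HMU libraries. It fell by 0.91 (log2, SE 0.17, edgeR adjusted p = 0.00312) without overlap of the groups.

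TNFSF10, the gene of the death ligand TRAIL, was the ligand with the highest PBS level and was not called. It was at 20.3, 17.5 and 18.6 CPM in PBS and at 18.7, 23.8 and 21.1 CPM in HMU libraries, which overlap (log2 fold change 0.18 ± 0.11 SE, edgeR adjusted p = 0.204). TNFSF12, which encodes TWEAK, had 2.15, 1.84 and 1.66 CPM in PBS and 1.99, 2.00 and 2.23 CPM after HMU, again with overlap (edgeR adjusted p = 0.454). TNFSF9, the 4-1BB ligand gene, had 2.33, 2.67 and 1.82 CPM in PBS and 2.02, 2.23 and 1.65 CPM after HMU and was not called (edgeR adjusted p = 0.38), but it was called lower on log2(TPM + 1) (-0.44, limma adjusted p = 0.0201). The B-cell survival factor genes TNFSF13 and TNFSF13B, for APRIL and BAFF, were not called either. TNFSF13 had 2.67, 2.44 and 3.05 CPM in PBS and 4.12, 2.70 and 3.33 CPM in HMU libraries (edgeR adjusted p = 0.175), and TNFSF13B had 0.311, 0.461 and 0.166 CPM in PBS and 0.371, 0.435 and 0.313 CPM in HMU libraries (edgeR adjusted p = 0.602). The readthrough gene TNFSF12-TNFSF13 held 85 counts in HMU replicate 2 and 0 elsewhere, and reads of the 3 genes cannot be told apart with certainty. Summed with the readthrough counts, TNFSF13 was called higher (log2 fold change 0.51, edgeR adjusted p = 0.0196), as it was without HMU replicate 2 (0.45, edgeR adjusted p = 0.0207).

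The receptors of TNF and the lymphotoxins rose together with their ligands, from very different levels. TNFRSF1B encodes TNF receptor 2, which binds TRAF2 and is known mainly from leukocytes. It was at 0.410, 0.363 and 0.472 CPM in PBS and at 7.44, 7.24 and 7.27 CPM in HMU libraries. The HMU values were nearly equal and all above PBS, and the log2 fold change of 4.13 ± 0.13 SE had the lowest adjusted p among the members (edgeR adjusted p = 7.42e-07). TNFRSF1A, the broadly expressed death domain receptor of TNF and lymphotoxin alpha, was at 113.3, 117.8 and 119.1 CPM in PBS and at 215.8, 234.9 and 203.2 CPM in HMU libraries. It was higher in every HMU library, by 0.90 ± 0.07 SE on the log2 scale (edgeR adjusted p = 5.71e-05). LTBR, the lymphotoxin beta receptor gene that drives alternative NF-kB signalling, had 129.1, 133.6 and 135.9 CPM in PBS and 217.5, 257.8 and 211.8 CPM in HMU libraries. The groups did not overlap, with a log2 fold change of 0.79 ± 0.09 SE (edgeR adjusted p = 0.000275). LTBR overlaps SCNN1A in the annotation, a sodium channel gene with 3746 to 4028 counts in PBS and 5308 to 5841 in HMU libraries. TNFRSF25, TNFRSF10B, TNFRSF6B, FAS and EDAR likewise overlap ESPN, RHOBTB2, ARFRP1, ACTA2 and RANBP2, so their values carry the same uncertainty.

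Of the 8 death domain receptors, 5 rose, 1 fell and 2 were not called, against 24.8% higher and 24.9% lower of all tested genes. TNFRSF25, the TL1A receptor gene, was at 22.6, 25.1 and 21.2 CPM in PBS and at 47.5, 54.9 and 41.2 CPM in HMU libraries. It rose without overlap, by 1.06 ± 0.12 SE (log2, edgeR adjusted p = 0.000296). The TRAIL receptor genes rose less. TNFRSF10A was at 11.1, 11.5 and 11.0 CPM in PBS and at 21.0, 16.4 and 20.9 CPM in HMU libraries (log2 fold change 0.79 ± 0.11 SE, edgeR adjusted p = 0.000745). TNFRSF10B was at 56.1, 57.8 and 59.4 CPM in PBS and at 95.2, 80.2 and 96.6 CPM in HMU libraries (log2 fold change 0.65 ± 0.09 SE, edgeR adjusted p = 0.00071). In both, HMU replicate 2 was the lowest treated library and still above all PBS libraries; on log2(TPM + 1) neither was called (limma adjusted p = 0.0655 and 0.128). FAS, the receptor gene of Fas ligand, was at 12.9, 12.7 and 13.0 CPM in PBS and at 15.3, 12.3 and 13.5 CPM in HMU libraries, which overlap (log2 fold change 0.09 ± 0.09 SE, edgeR adjusted p = 0.443).

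NGFR, the p75 neurotrophin receptor gene of basal epithelium, rose from 22.8 ± 1.19 to 30.8 ± 2.08 CPM (SD, n = 3, edgeR adjusted p = 0.00367), a call that was lost with library sizes only (log2 fold change 0.15, edgeR adjusted p = 0.145), on log2(TPM + 1) and log2(TPM + 0.1) (0.03 on both, limma adjusted p = 0.807 and 0.806) and on log2(FPKM + 1) (0.13, limma adjusted p = 0.164). TNFRSF21, which encodes death receptor 6, went from 441.1 ± 9.65 to 372.0 ± 37.8 CPM and was called lower next to the threshold (log2 fold change -0.25 ± 0.08 SE, edgeR adjusted p = 0.0425). That call ended with RLE scaling (edgeR adjusted p = 0.0508), with no filter on low counts (0.0641), and without PBS replicate 1, 2 or 3 or HMU replicate 1 (0.122, 0.096, 0.129 and 0.0706). EDAR, the ectodysplasin receptor gene, had 3.16 ± 0.438 CPM in PBS and 2.46 ± 0.306 CPM after HMU and was not called (edgeR adjusted p = 0.0897); with library sizes only it was lower (log2 fold change -0.64, edgeR adjusted p = 0.0103), as it was on log2(TPM + 1) and log2(FPKM + 1) (limma adjusted p = 0.00963 and 0.0117).

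Among the 4 decoys, TNFRSF6B rose most. It encodes decoy receptor 3, a soluble protein that binds Fas ligand, LIGHT and TL1A, and was at 1.74, 2.00 and 1.08 CPM in PBS and at 8.03, 10.8 and 8.18 CPM in HMU libraries. The groups did not overlap, and the log2 fold change was 2.49 ± 0.23 SE (edgeR adjusted p = 0.00011). The readthrough gene RTEL1-TNFRSF6B held 260 counts in PBS replicate 3, where TNFRSF6B was lowest with 78 counts, and 0 counts in the other libraries. With the pair summed, counts were 123, 143 and 338 in PBS and 476, 622 and 496 in HMU libraries, still without overlap, and the log2 fold change was 1.68 (edgeR adjusted p = 0.00629). TNFRSF10D, a membrane decoy for TRAIL, had 4.93 ± 0.457 CPM in PBS and 6.21 ± 0.437 CPM after HMU and was called higher next to the threshold (log2 fold change 0.33 ± 0.11 SE, edgeR adjusted p = 0.0367). That call ended with no filter (edgeR adjusted p = 0.0553), with library sizes only (0.701), and without any 1 of the libraries except HMU replicate 2 (0.0533 to 0.131); on log2(TPM + 1) its direction turned to -0.05.

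Of the receptors known for costimulation of lymphocytes, TNFRSF9, TNFRSF8, TNFRSF18 and CD40 were called higher, TNFRSF14 was not called, and TNFRSF4 and CD27 had too few counts to be tested. TNFRSF9, the 4-1BB gene, had 3, 10 and 0 counts in PBS and 281, 188 and 259 counts in HMU libraries, or 4.74, 3.27 and 4.27 CPM after HMU. All HMU libraries were above all PBS libraries, with a fitted log2 fold change of 6.03 ± 0.51 SE (edgeR adjusted p = 6.67e-05). Without PBS replicate 2, which held 10 of its PBS counts, the fitted value was 7.48. TNFRSF8, which encodes CD30, was at 21.8, 23.3 and 22.5 CPM in PBS and at 49.2, 56.3 and 46.8 CPM in HMU libraries. The groups were well apart, at a log2 fold change of 1.17 ± 0.09 SE (edgeR adjusted p = 3.81e-05). TNFRSF18, the receptor gene of the GITR ligand, had 4.10, 3.48 and 3.98 CPM in PBS and 7.69, 10.7 and 5.57 CPM in HMU libraries. It rose by 1.05 ± 0.22 SE (log2, edgeR adjusted p = 0.00639), with HMU replicate 2 highest and no overlap. CD40, a receptor of antigen-presenting cells and epithelium, was at 32.3, 32.0 and 32.4 CPM in PBS and at 51.3, 59.7 and 48.9 CPM in HMU libraries. It was higher in every HMU library, by 0.73 ± 0.09 SE (log2, edgeR adjusted p = 0.00043), while its ligand gene CD40LG had 0 counts throughout. TNFRSF14, the HVEM gene, had 2.58 ± 0.365 CPM in PBS and 2.97 ± 0.20 CPM after HMU and was not called (edgeR adjusted p = 0.266). Its direction turned with the scaling, and it was called lower by limma on both TPM scales (pseudocounts 1 and 0.1) and on log2(FPKM + 1) (-0.33, -0.45 and -0.17, limma adjusted p = 0.0165, 0.0223 and 0.0351).

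TNFRSF19, the TROY receptor gene, known from hair follicle and other progenitor cells, was the member that fell most. It was at 4.83, 5.28 and 5.88 CPM in PBS and at 1.79, 1.27 and 2.14 CPM in HMU libraries. All HMU libraries were below all PBS libraries, and the log2 fold change was -1.62 ± 0.19 SE (edgeR adjusted p = 0.00036). TNFRSF11A, the RANK gene, receptor of the TNFSF11 product, had 1.42 ± 0.0548 CPM in PBS and 1.00 ± 0.149 CPM after HMU and was called lower (log2 fold change -0.50 ± 0.16 SE, edgeR adjusted p = 0.0367). This call ended with DESeq2 (adjusted p = 0.0553) and in edgeR without PBS replicate 1, 2 or 3 or HMU replicate 1 (adjusted p = 0.0845, 0.107, 0.0869 and 0.107). TNFRSF12A, the TWEAK receptor gene, had 129.9 ± 5.65 CPM in PBS and 167.4 ± 18.3 CPM after HMU (log2 fold change 0.37 ± 0.09 SE, edgeR adjusted p = 0.0128). It was not called with library sizes only (log2 fold change 0.08, edgeR adjusted p = 0.436), on log2(FPKM + 1) (limma adjusted p = 0.379) or without PBS replicate 1 or 3 (edgeR adjusted p = 0.0616 and 0.0502), and on log2(TPM + 1) its direction turned to -0.04. TNFRSF13C, the BAFF receptor gene, had 6 to 24 counts per library and was not called (edgeR adjusted p = 0.556).

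Levels were compared between genes on the deposited TPM values, which are per transcript length. On log2(TPM + 1) the median of all tested genes fell by 0.27, so a level that held in TPM rose relative to that median. The summed TPM of the 17 ligands was 39.0 to 42.5 in PBS and 68.8 to 76.5 in HMU libraries, and that of the 28 receptors was 1033 to 1084 and 1082 to 1144 TPM. TNFSF10 held 56.4% to 59.6% of the ligand sum in PBS libraries and 25.2% to 30.5% in HMU libraries. LTB held 1.27% to 2.84% in PBS and 23.1% to 33.4% in HMU libraries, and TNFSF18 went from 2.18% to 4.01% up to 13.1% to 21.5%. After HMU, LTB at 20.2 ± 2.67 TPM and TNFSF10 at 20.2 ± 1.73 TPM (SD, n = 3) did not differ beyond their spread. TNFSF18 followed at 13.0 ± 3.73 TPM, then TNFSF15 at 6.12 ± 1.26 TPM and TNF at 3.68 ± 1.31 TPM. TNFRSF12A was the receptor with the highest TPM in both groups (312.9 and 304.4 on average). TNFRSF21 came next in PBS and held 25.3% to 26.9% of the summed TPM of all members there, but 13.1% to 17.6% in HMU libraries. After HMU, LTBR at 193.7 ± 6.57, TNFRSF21 at 186.0 ± 31.5 and TNFRSF1A at 178.5 ± 1.51 TPM came next, of which TNFRSF21 did not part from either neighbour beyond its spread.

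**Figure D3:**
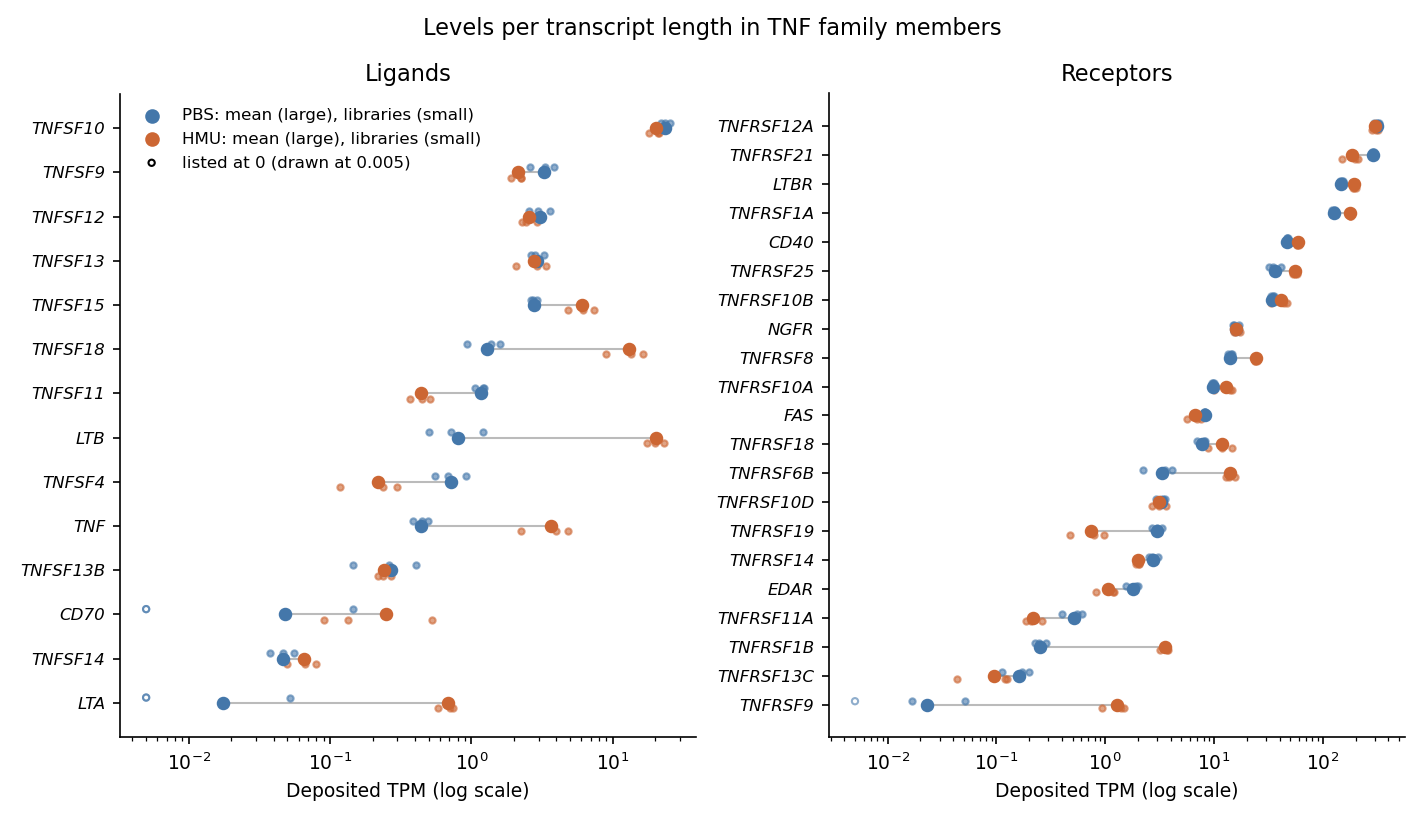
Deposited TPM on log axes for ligands and receptors detected in both groups, ordered by PBS level. Large points are means of 3 libraries, small points are libraries, and open points are libraries listed at 0, drawn at 0.005. LTB moves from a mean of 0.809 to 20.2 TPM, next to TNFSF10, while TNFRSF12A, TNFRSF21, LTBR and TNFRSF1A stay at the top of the receptors.

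Ligand and receptor genes of known pairs were set side by side. Of 30 listed pairs, 7 had both partners at a mean of at least 1 TPM in PBS and 11 in HMU libraries. Both partners were called higher in 7 pairs: TNF with TNFRSF1A and with TNFRSF1B, LTA with TNFRSF1A, LTB with LTBR, TNFSF15 with TNFRSF25 and with the decoy TNFRSF6B, and TNFSF18 with TNFRSF18. These pairs share members and are not separate observations. The list is not complete: LTA was listed with TNFRSF1A alone, and TNFRSF1B, also called higher, with TNF alone. Of the tested members, 5 of 12 ligands and 14 of 21 receptors were called higher, against 24.8% of all tested genes. For TNF and TNFRSF1B, levels went from 0.441 and 0.252 TPM to 3.68 and 3.55 TPM, and for TNFSF18 and TNFRSF18 from 1.30 and 7.77 TPM to 13.0 and 11.7 TPM. Both partners were called lower in the pair TNFSF11 and TNFRSF11A, at 1.17 and 0.520 TPM in PBS and 0.442 and 0.219 TPM after HMU. For TNFRSF8 and CD40, the receptors were at 24.2 and 58.7 TPM after HMU while their ligand genes TNFSF8 and CD40LG had 0 counts. TNFSF9 was at 3.26 TPM in PBS and 2.13 TPM after HMU, while its receptor gene TNFRSF9 went from 0.0227 to 1.27 TPM.

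Several members are neighbours in the genome (RefSeq annotation of GRCh38). LTA (chromosome 6 from 31560610 to 31574324), TNF (31575565 to 31578336) and LTB (31580558 to 31582425) lie 1.24 and 2.22 kb apart, and all 3 rose. TNFRSF8 (chromosome 1 from 12063303 to 12144207) and TNFRSF1B (12166991 to 12209220), 22.8 kb apart, rose as well, as did TNFRSF1A (chromosome 12 from 6328771 to 6342076) and LTBR (6375160 to 6391566), 33.1 kb apart. Next to LTBR, CD27 stayed at 0 to 12 counts. On the long arm of chromosome 1, TNFSF18 (173039202 to 173050941) and TNFSF4 (173172870 to 173450733), ligands of related costimulatory receptors, lie 122 kb apart and moved in opposite directions (log2 fold changes 3.66 and -0.90). TNFSF15 (chromosome 9 from 114784635 to 114806039) rose, while TNFSF8, 87.3 kb away, had 0 counts in every library.

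Genes that act with these receptors were listed with earlier results of these data known, so the counts below describe the list only. It held 39 adaptors and signal genes and 13 genes of ligand release and mRNA decay, all of them tested. Of the 39, 22 were higher and 5 lower, and of the 13, 8 were higher and 0 lower, against 24.8% and 24.9% of all tested genes; with library sizes only the 52 gave 22 higher and 10 lower. The 4 largest rises were those of TNIP1, BIRC3, ADAM19 and CFLAR. TNIP1, a partner of the deubiquitinase A20 that restrains NF-kB signalling, was at 91.5, 87.2 and 91.3 CPM in PBS and at 677.9, 744.7 and 645.3 CPM in HMU libraries. It rose in every HMU library, by 2.94 ± 0.08 SE on the log2 scale (edgeR adjusted p = 3.15e-07). BIRC3, the cIAP2 ubiquitin ligase of TNF receptor complexes, rose from 16.2 ± 2.04 to 82.6 ± 17.3 CPM (SD, n = 3, edgeR adjusted p = 3.43e-05). CFLAR, the FLIP gene whose product blocks caspase-8 activation at death receptors, rose from 46.8 ± 0.238 to 177.7 ± 20.2 CPM (edgeR adjusted p = 4.6e-06). ADAM19, a sheddase gene, rose from 0.765 ± 0.109 to 3.64 ± 0.612 CPM (edgeR adjusted p = 5.45e-05).

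The 4 largest falls were those of MAP3K14, TRAF5, OTULIN and TAB1. MAP3K14 encodes NIK, the kinase of alternative NF-kB signalling, and fell by 0.69 on the log2 scale (SE 0.07), with means of 23.6 ± 0.630 CPM in PBS and 14.6 ± 0.777 CPM in HMU libraries (edgeR adjusted p = 0.000215). TRAF5, an adaptor of TRAF-binding receptors, fell from 8.99 ± 0.677 to 5.77 ± 0.508 CPM (edgeR adjusted p = 0.0019). OTULIN, which removes linear ubiquitin, fell from 55.9 ± 1.05 to 38.1 ± 4.67 CPM, and TAB1, a partner of the kinase TAK1, from 31.7 ± 0.399 to 23.5 ± 2.35 CPM (edgeR adjusted p = 0.00272 and 0.00468). Of 6 listed genes that act in death receptor signalling, picked after their values were seen, BID, CASP10 and RIPK1 were called higher. Their log2 fold changes were 0.85, 0.41 and 0.41 (edgeR adjusted p = 0.000297, 0.00609 and 0.00178). Over all tested genes, 24.8% were called higher and 49.7% in either direction. The pick left out MLKL, RIPK3 and DAXX, called higher, and XIAP and FAF1, not called, all from the same list. The other members of that pick were not called: TRADD had 11.2 ± 0.403 CPM in PBS and 11.7 ± 2.91 after HMU, FADD 29.7 ± 0.300 and 33.9 ± 5.00, and CASP8 18.7 ± 0.584 and 22.1 ± 3.20 (edgeR adjusted p = 0.735, 0.192 and 0.112). In the list of ligand release, ADAM17, which sheds TNF from the membrane, went from 72.8 ± 2.12 to 129.2 ± 19.1 CPM (edgeR adjusted p = 0.000672), and was likewise picked after its value was seen.

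**Figure D4:**
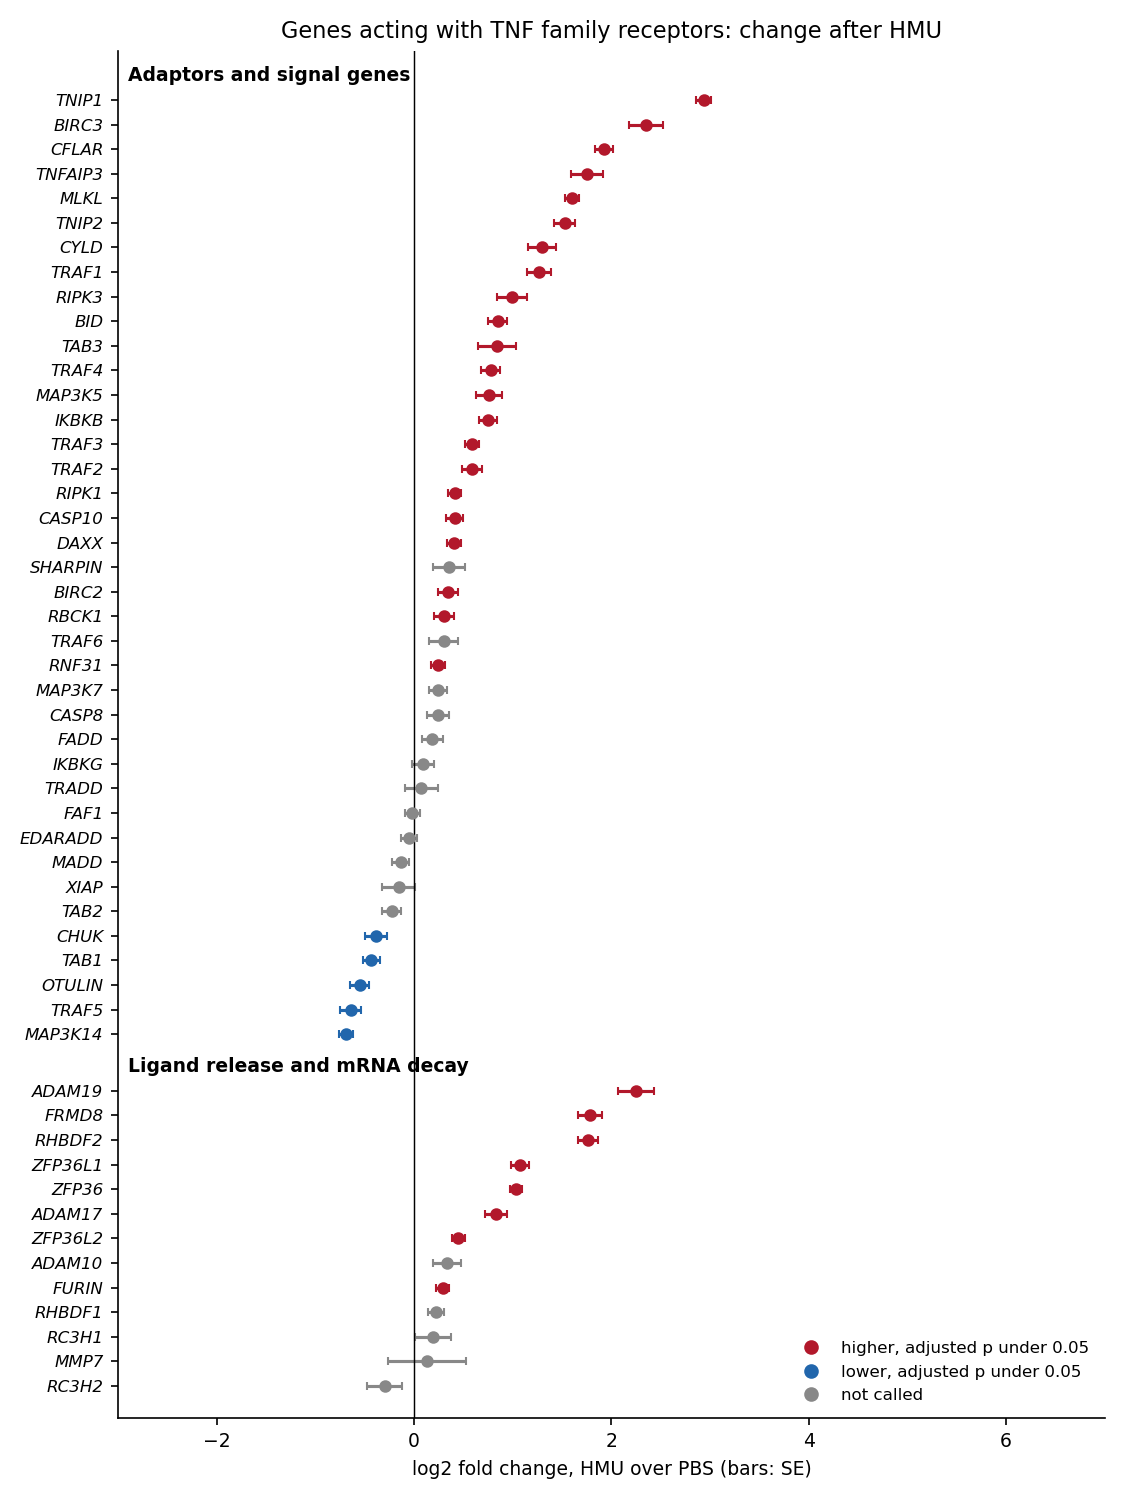
Log2 fold change of HMU over PBS with SE bars for 39 adaptors and signal genes and 13 genes of ligand release and mRNA decay, coloured by call. TNIP1 is highest at 2.94 and MAP3K14 lowest at -0.69; no gene of the second list was called lower.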

How the data were processed

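The deposited table gives 3 values per gene and library. The deposited counts, headed as read counts, are whole numbers, unscaled as far as their totals show. Per the file headers, the authors also gave FPKM (per transcript length and library) and TPM, which is set to 1 fixed total. Tools listed in the submitters' processing notes are HISAT2 2.1.0 and StringTie 2.1.3b, besides FastQC 0.11.7 and Trimmomatic 0.38, with build GRCh38. How reads were counted, on which annotation and whether by strand, is not stated there. Treated columns are headed HMO where the labels write HMU; being the only columns other than controls, they were read as HMU by number.

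Counts were tested in R 4.3.3 with edgeR 4.0.16: filterByExpr with the 2 groups (minimum count 10), TMM scaling, estimateDisp, then glmQLFit with its default settings and glmQLFTest with the group as the only term. Calls used a Benjamini-Hochberg adjusted p under 0.05 over all 17990 genes tested. The biological coefficient of variation was 11.9%. Each SE is the log2 fold change divided by the root of F. Levels are TMM-scaled CPM, and SDs are over 3 libraries. Total counts are even, so depth limits only genes of few counts. The fit was first run on simulated counts with few changed genes, balanced in direction. That setting is unlike these data, where 49.7% of tested genes were called, so it does not test the scaling.

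The members, lists and tests were chosen with earlier results of these data known. Values in every library are given for ligands that passed the filter, for called members of at least 1 CPM and 2-fold change, and for TNFRSF1A, TNFRSF1B, FAS, TNFRSF10A, TNFRSF10B, CD40 and LTBR. From the adaptor and ligand release lists, the rule named called genes of at least 1 CPM, the 4 that rose most and the 4 that fell most. Alternatives were DESeq2 1.42.0, limma 3.58.1 (voom, and trend on log2 TPM and FPKM), other scalings and filters, a replicate block and leaving out each library. Gene positions were matched by gene ID to RefSeq.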

Additional observations from a re-analysis of the deposited data

How the results depend on the processing

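Members called higher numbered 14 to 20 and members called lower 3 to 8 over all settings. The calls of LTB, LTA, TNF, TNFSF18, TNFSF15, TNFRSF1B, TNFRSF1A and LTBR held in direction and threshold under each setting that tested them. So did those of CD40, TNFRSF25, TNFRSF6B, TNFRSF8, TNFRSF9 and TNFRSF18, and the lower calls of TNFRSF19, TNFSF4 and TNFSF11. With library sizes only, 2413 genes were higher and 7855 lower, and 10 adaptor and release genes were lower. With limma on log2(TPM + 1), on log2(TPM + 0.1) and then on log2(FPKM + 1), 1975, 1965 and 2441 genes were higher and 9153, 9126 and 7612 lower; 8, 8 and 7 members were lower; 17, 17 and 22 adaptor and release genes were higher and 13, 13 and 10 lower. The pseudocount shrinks changes of low genes there (TNFRSF9 1.14 on log2(TPM + 1)).

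Without each library in turn, 17 to 20 members were higher and 3 to 5 lower, 26 to 36 adaptor and release genes were higher and 4 to 7 lower, and 3334 to 5426 genes were higher and 3290 to 5481 lower. Dropping PBS replicate 1, 2 or 3 or HMU replicate 1 left 3 lower members. Without each library in turn, the log2 fold change of TNFSF13B ranged from -0.054 (without PBS replicate 3) to 0.640 (without PBS replicate 2).

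Some members that were not called changed sign with scaling. TNFRSF14 moved from 0.20 to -0.08 with library sizes only and was called lower by limma on both TPM scales (pseudocounts 1 and 0.1) and on log2(FPKM + 1) (-0.33, -0.45 and -0.17). EDAR and TNFSF9 kept their sign; EDAR was called lower under those 4 settings and TNFSF9 on the 2 TPM scales. FAS moved to -0.19 with library sizes only, to -0.27 and -0.30 on log2(TPM + 1) and log2(TPM + 0.1) and to -0.13 on log2(FPKM + 1); in the same order TNFSF12 moved to -0.14, -0.18, -0.24 and -0.066, TNFSF10 to -0.11, -0.22, -0.23 and -0.090, and TNFSF13B to -0.030, -0.028, -0.055 and -0.0019. TNFSF13 moved to -0.058 and -0.081 on the 2 TPM scales. The cause of these changes was not tested beyond the shift of the median of all genes.

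A replicate block gave 19 higher and 4 lower members and 4173 higher and 4250 lower genes; TNFRSF11A was not called with it (adjusted p = 0.0656). Deviations of same-numbered libraries correlated at -0.019, 0.0346 and 0.0477. PBS replicates 2 and 3 correlated best with the HMU library of their own number, and PBS replicate 1 with HMU replicate 3 (0.0124). With 3 libraries per group, these values cannot show whether same-numbered samples were paired. The newer quasi-likelihood fit and the sums with readthrough genes were added after seeing the data; that fit gave 19 higher and 5 lower members. Depth limits the 12 members that were not tested, and the folds of LTA and TNFRSF9, which had 4 and 13 counts in all under PBS.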

Other observations

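Symbols outside the selection rule hold further relatives of the family. RELT, a receptor of the same superfamily, was at 11.9, 12.8 and 11.4 CPM in PBS and at 24.2, 25.3 and 22.7 CPM in HMU libraries. It was higher in every HMU library (log2 fold change 1.00 ± 0.08 SE, edgeR adjusted p = 5.52e-05). EDA, which encodes ectodysplasin, the ligand of EDAR, had 13, 20 and 34 counts in PBS and 8, 10 and 13 in HMU libraries and was not called (edgeR adjusted p = 0.136). MLKL and RIPK3, the effector and kinase of necroptosis downstream of TNF receptors, rose from 9.05 ± 0.309 to 27.5 ± 1.28 CPM and from 2.16 ± 0.364 to 4.31 ± 0.369 CPM (SD, n = 3, edgeR adjusted p = 3.67e-06 and 0.00127). These 2 genes were picked after their values were seen.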
